A study of Mus musculus with 6 samples.

Results

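The genes described here encode amino acid and sugar transporters of mouse kidney and their close relatives. They are the 88 genes, of 18193 on the array, whose platform symbol begins Slc1a, Slc2a, Slc3a, Slc5a, Slc6a, Slc7a, Slc36a, Slc38a or Slc43a followed by a digit, a rule on symbols alone. Of these, 84 are transporter genes and 4 are a pseudogene or genes named for a neighbour on the opposite strand (Slc2a4rg-ps, Slc36a1os, Slc6a19os and Slc7a6os). A gene was tested where its mean log2 intensity reached 6.01, a level set over all probe sets, and 65 of the 88 passed. In this study 1 renal pedicle of male FVB/N mice, aged 6 to 8 weeks and weighing 22 to 26 g, was clamped for 60, 45 or 0 min and released. Kidneys were taken on day 1 or day 3 after reperfusion, and total RNA of each combination was hybridised to 1 Affymetrix expression array, 6 in all. The labels name no drug and no mutant allele for these 6 kidneys. They do not say whether an array holds RNA of 1 animal or a pool, or what surgery apart from clamping for 0 min the controls shared with the others. No combination was replicated, so the p-values below rest on the spread left among the 6 arrays by a fit of clamp time plus day, with 2 residual degrees of freedom. The change between days had a fit of its own. In limma the spread of each gene is also drawn towards that of all genes tested, so no p-value rests on the spread of that gene alone.

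The proximal tubule reclaims nearly all filtered glucose and amino acids. Carriers in its apical brush border take these solutes up with sodium or by exchange, and carriers in the basolateral membrane pass them on to the blood. Other members of the same families supply nutrients to dividing or stressed cells, among them the leucine carrier Slc7a5 with its heavy chain Slc3a2, the arginine carrier Slc7a1 and the glutamine carriers Slc38a1 and Slc38a2. For these, 15 genes were listed as apical proximal, 13 as growth-linked and 6 as basolateral proximal.

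Promoter windows of 4 members are shown because both pairs carry the contrast between the lists described below: Slc3a1 and Slc6a20b stand for the apical genes that were lower after 60 min, and Slc38a2 and Slc7a1 for the growth-linked genes that were higher. Each runs from 250 bases before to 30 bases after a RefSeq start on GRCm38.p6, 5′ to 3′ on the gene's own strand, with every CG dinucleotide in capitals.
Slc3a1 chr17:85028097-85028376 (plus strand): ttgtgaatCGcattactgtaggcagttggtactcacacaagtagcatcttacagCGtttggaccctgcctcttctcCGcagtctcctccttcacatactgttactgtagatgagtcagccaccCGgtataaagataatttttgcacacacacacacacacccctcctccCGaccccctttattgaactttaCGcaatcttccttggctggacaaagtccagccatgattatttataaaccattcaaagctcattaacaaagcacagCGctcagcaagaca
Slc6a20b chr9:123632509-123632788 (minus strand): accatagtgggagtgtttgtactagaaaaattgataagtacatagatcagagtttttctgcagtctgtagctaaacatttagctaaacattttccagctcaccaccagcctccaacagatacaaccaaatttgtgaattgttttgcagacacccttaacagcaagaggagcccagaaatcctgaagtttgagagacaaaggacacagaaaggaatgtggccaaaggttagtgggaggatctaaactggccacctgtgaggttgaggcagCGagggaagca
Slc38a2 chr15:96699699-96699978 (minus strand): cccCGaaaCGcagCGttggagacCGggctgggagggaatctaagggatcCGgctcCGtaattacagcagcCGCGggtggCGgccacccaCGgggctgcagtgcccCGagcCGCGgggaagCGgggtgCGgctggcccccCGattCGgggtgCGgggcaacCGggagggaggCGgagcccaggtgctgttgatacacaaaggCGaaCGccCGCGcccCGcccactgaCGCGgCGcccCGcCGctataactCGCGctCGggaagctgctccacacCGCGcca
Slc7a1 chr5:148399875-148400154 (minus strand): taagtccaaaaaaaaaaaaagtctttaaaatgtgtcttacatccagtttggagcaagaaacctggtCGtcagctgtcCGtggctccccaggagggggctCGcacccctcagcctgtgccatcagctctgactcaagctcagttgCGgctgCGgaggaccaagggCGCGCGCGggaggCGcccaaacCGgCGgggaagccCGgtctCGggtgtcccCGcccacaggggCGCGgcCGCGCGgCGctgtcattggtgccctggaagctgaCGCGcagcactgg

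The apical windows shown held 7 CG dinucleotides in Slc3a1 and 1 in Slc6a20b, and the growth-linked windows held 35 in Slc38a2 and 23 in Slc7a1. Apical genes lower at 60 min did not all hold few, with 32 in Slc1a1, 19 in Slc5a8 and 3 in Slc5a10. Of the 88 members, 65 had a window in the RefSeq table, 11 of them apical and 8 growth-linked. Slc5a2, Slc5a12, Slc6a18 and Slc7a13 were missing from the apical list, and Slc1a5, Slc2a3, Slc7a3, Slc7a5 and Slc38a1 from the growth-linked list. The median number of CG dinucleotides was 7 (range 1 to 32) over the 11 apical windows and 16 (range 4 to 35) over the 8 growth-linked windows, against 7 over all 27025 genes of the table. The median GC content was 60.0% in the apical windows and 63.6% in the growth-linked windows, against 52.5% in all genes. The ranges of the lists overlapped on both counts.

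Motifs were searched on both strands of these windows, and none of the 4 contains another. The letters GTTAAT, one arm of the palindrome bound by the HNF1 factors, occurred in 3 of 11 apical windows (Slc3a1, Slc5a10 and Slc6a20a) and in 0 of 8 growth-linked windows, against 6.95% of all 27025. The letters TGATGNAA, the core to which ATF4 binds in amino acid response elements, occurred in 0 of 11 apical and 2 of 8 growth-linked windows (Slc1a4 and Slc7a11), against 3.89% of all. A TATAAA box occurred in 1 of 11 apical and 0 of 8 growth-linked windows, against 13.7% of all, and the E-box CACGTG in 1 of 11 apical (Slc5a1) and 0 of 8 growth-linked windows, against 6.89% of all. With so few windows these matches are a description of the letters only.

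All 6 arrays had been scaled by the submitters to a common trimmed mean of 500 (500.003 on each), with medians between 81.4 and 95.3. The ratio of 3′ to 5′ Actb control probe sets, on the log2 scale, lay between 1.08 and 1.12 on day 1 and was 0.77, 1.03 and 0.49 at 0, 45 and 60 min on day 3. All 15 proximal tubule markers measured, apart from the members, were above an intensity of 153 on every array. Each of the 15 was lower at 60 than at 0 min, with a median log2 difference of -0.57, and their summed intensity was 127016 and 142756 on the 60 min arrays of days 1 and 3, against 189678 and 210418 on the 0 min arrays. Of the markers above the filter, those of injured tubules (7 of 7), fibroblasts and pericytes (6 of 6), leukocytes (10 of 10) and cycling cells (5 of 5) were higher at 60 min, by medians of 2.10, 1.26, 0.84 and 3.12. Markers of the loop, distal tubule and collecting duct (7 of 7) were lower, with a median of -0.92 and summed intensities of 50053 and 44556 on the 60 min arrays of days 1 and 3, against 78124 and 78021 on the 0 min arrays. No marker of any cell type had an intensity of 0 on any array. In whole kidney RNA, fewer cells of a type and less RNA per cell cannot be told apart.

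The first question was whether 60 min of clamping was followed by other levels of these genes than 0 min, over both days. At 60 min the apical carriers as a list lay lower and the growth-linked carriers higher. Slc7a13, the apical carrier of acidic amino acids and cystine, differed by -1.22 on the log2 scale, the arginine carrier Slc7a1 by 1.03 and the leucine carrier Slc7a5 by 1.09. No gene passed an adjusted p under 0.05 in limma (0% of 12734 genes), and so no transporter did. The lowest adjusted p of a member was 0.0809 (limma), for Slc6a20b. At an unadjusted p under 0.05, 10 of 65 members (15.4%) were higher, against 13.2% of all genes tested, and 11 (16.9%) were lower, against 8.22% of all. The share of higher members was thus near that of all genes. Of the 65 members, 15 had both 60 min arrays above both 0 min arrays, where 30.1% of all genes did so. In 17 members both lay below, where 23.5% of all genes did.

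Apical proximal genes had a median log2 difference of -0.33 (range -1.22 to 0.36), with 12 of 15 lower and 3 higher, beside a median of 0.03 and 46.1% lower over all genes tested. At an unadjusted p under 0.05, 6 of the 15 were lower (40.0%) and 0 higher. Their summed intensity was 67541 and 65440 on the 60 min arrays of days 1 and 3, against 80132 and 101909 on the 0 min arrays. Growth-linked genes, of which 11 of 13 passed the filter, had a median of 0.28 (range -0.18 to 1.09), with 9 higher and 2 lower. Here 5 of 11 (45.5%) were higher at an unadjusted p under 0.05 and 0 lower. The apical median stood beside -0.57 for the proximal tubule markers and -0.92 for those of the loop, distal tubule and collecting duct, and the part of a wider tubular difference in it was not tested. The medians rest partly on single control arrays. Without the 0 min array of day 3 the apical median was -0.03, and without the 0 min array of day 1 the growth-linked median was 0.68. Quantile normalization gave a growth-linked median of 0.15 and median centring 0.18, beside medians of -0.03 and -0.06 over all genes tested.

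**Figure D1:**
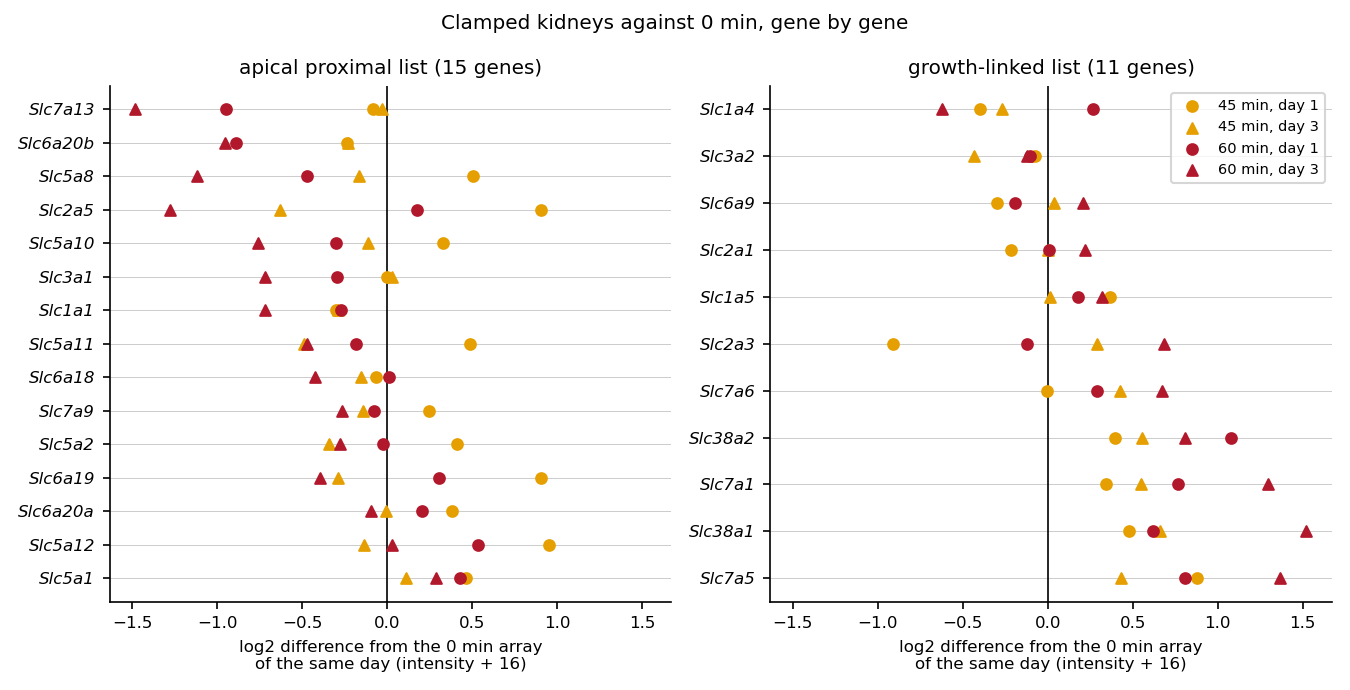
Log2 difference (intensity + 16) of each clamped array from the 0 min array of the same day (horizontal axis) for the 15 apical proximal genes (left) and the 11 growth-linked genes that passed the filter (right), with circles for day 1, triangles for day 3, orange for 45 min and red for 60 min. The 60 min points of Slc7a13 and Slc6a20b lie well left of 0 and those of Slc38a2, Slc7a1, Slc38a1 and Slc7a5 well right of it, whereas Slc5a1 has all 4 points right of 0.

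In the gene by gene account that follows, values are intensities, those of 1 clamp time are given for day 1 and then day 3, and differences are log2 values with their standard error. A lack of overlap between the 60 and 0 min arrays was common, with 30.1% of all genes tested higher and 23.5% lower in this way. Among apical carriers of amino acids, Slc7a13 differed most. This carrier of aspartate, glutamate and cystine pairs with Slc3a1 in the last segment of the proximal tubule. Its intensity was 18154, 17123 and 9404 at 0, 45 and 60 min on day 1, and 23248, 22729.9 and 8311 on day 3. Both 60 min arrays were therefore lower than all 4 others, while the 45 min arrays stood close to the 0 min array of their day. The difference of 60 from 0 min was -1.22 ± 0.20 (log2, SE; limma adjusted p = 0.0896). A second, dimmer probe set of the gene gave -1.36.

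Slc6a20b, of the Slc6a family, had 5871, 4988 and 3159 on day 1 and 6371, 5432 and 3284 on day 3 at 0, 45 and 60 min. The order ran the same way on both days and the 60 min arrays were lowest. Its difference was -0.92 ± 0.14 (limma adjusted p = 0.0809), and a second probe set also gave -0.92. Its paralog Slc6a20a differed by 0.06 ± 0.17, and whether either probe set also binds RNA of the other gene was not tested.

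Slc3a1, the heavy chain that carries Slc7a13 and Slc7a9 to the brush border and is mutated in human cystinuria, had 10547, 10524 and 8612 on day 1 and 10643, 10880.1 and 6473 on day 3. The 0 and 45 min arrays lay within a narrow band and both 60 min arrays below it, with a difference from 0 min of -0.50 ± 0.18 (limma adjusted p = 0.209). Slc7a9, its partner in cystine uptake, read 6586 and 6710.3 at 60 min, against 6948 and 8065 at 0 min, a difference of -0.17 ± 0.17. The groups did not overlap, but the gap was no larger than its standard error. The glutamate carrier Slc1a1 read 5019.8 and 4120.3 at 60 min, against 6061 and 6784 at 0 min (-0.49 ± 0.18, limma adjusted p = 0.219), without overlap. Its other probe sets gave smaller differences, -0.05 and -0.14.

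The broad neutral amino acid carrier Slc6a19, which causes Hartnup disorder in humans when lost, had 3344, 6277 and 4134 on day 1 and 4557, 3728 and 3463 on day 3. Its 60 min values overlapped those at 0 min, with a difference of -0.04 ± 0.30. Slc6a18, a glycine and neutral amino acid carrier of the late proximal tubule, read 4241 and 3146 at 60 min, against 4212 and 4220.4 at 0 min (-0.21 ± 0.17). Its 60 min array of day 3 was the lowest of the 6.

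Among apical carriers of sugars and other small solutes, Slc5a8 differed most. It takes up lactate and other monocarboxylates with sodium, and had 4047, 5763 and 2914 on day 1 and 8274, 7368 and 3805 on day 3 at 0, 45 and 60 min. Both 60 min arrays were the lowest of the 6, although the 0 min arrays themselves differed between days. Its difference of 60 from 0 min was -0.79 ± 0.22 (limma adjusted p = 0.154). The related lactate carrier Slc5a12 had overlapping groups, with 9258 and 11193 at 60 min, against 6389.6 and 10968 at 0 min (0.28 ± 0.28), and a second probe set gave 0.58.

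The glucose carriers of the brush border showed smaller differences. Slc5a2, the main one in the early proximal tubule and the target of gliflozin drugs, had 6923, 9196 and 6806 on day 1 and 11542, 9103 and 9539 on day 3. Its levels differed more between days at 0 min than between clamp times, and 60 differed from 0 min by -0.15 ± 0.22. Slc5a1, the high-affinity glucose carrier of the late segment, had 1478, 2049.5 and 1997 on day 1 and 1423, 1538 and 1739.8 on day 3. It was the one apical gene with both 60 min arrays above both 0 min arrays, by 0.36 ± 0.16 (limma adjusted p = 0.282), and its second probe set gave 0.34.

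Slc5a10, a mannose and fructose carrier, had 4450.2, 5586 and 3607 on day 1 and 3598, 3327 and 2120.4 on day 3, with the 60 min array lowest on each day (-0.53 ± 0.18, limma adjusted p = 0.199). Slc2a5, the fructose carrier of the brush border, read 573 and 267 at 60 min, against 506 and 670.2 at 0 min, so that the days ran opposite ways (-0.55 ± 0.41). The myo-inositol carrier Slc5a11 read 496 and 584 at 60 min, against 565 and 817 at 0 min (-0.33 ± 0.26), and the groups overlapped.

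**Figure D2:**
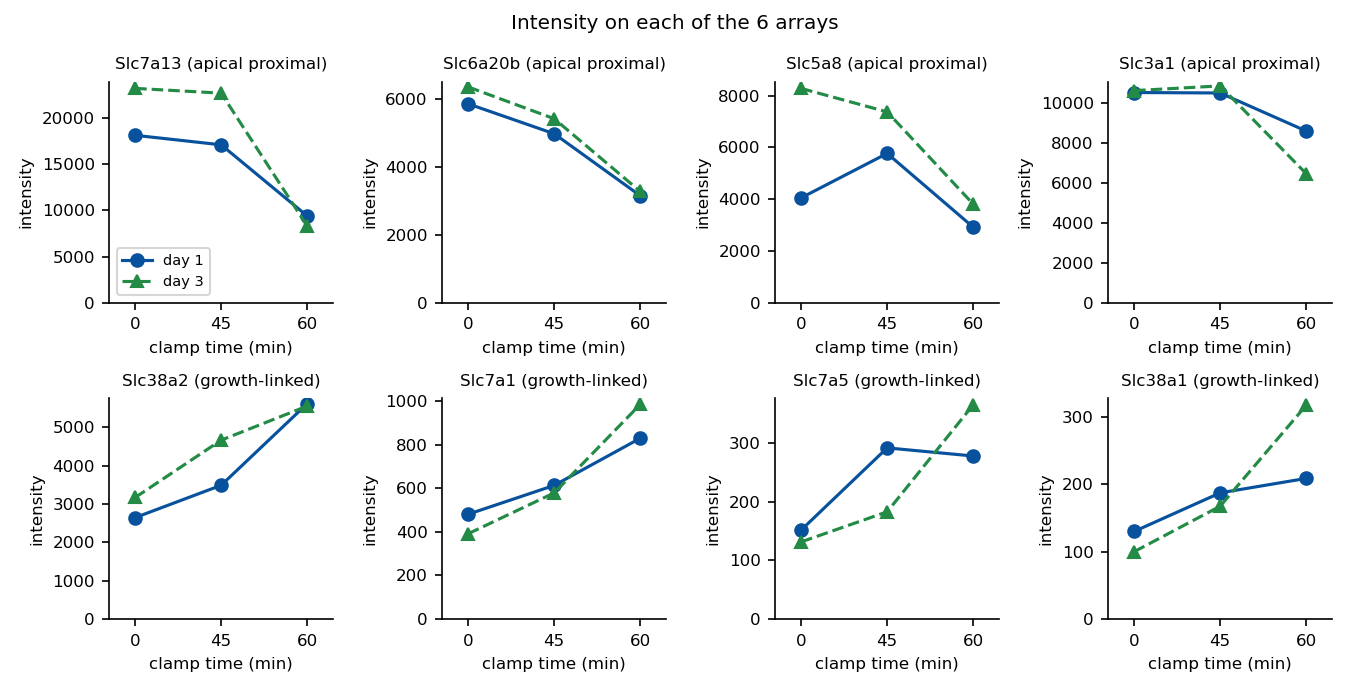
Deposited intensity (linear vertical axis from 0, scaled separately for each gene) against clamp time in min for 4 apical proximal genes (top) and 4 growth-linked genes (bottom), with 1 array per point, blue circles for day 1 and green triangles for day 3. In the top panels both 60 min arrays are the lowest, and in the bottom panels of Slc38a2, Slc7a1 and Slc38a1 both are the highest, while Slc7a5 at 45 min on day 1 (292) exceeds 60 min on that day (278).

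Of the growth-linked carriers, 5 stood higher at 60 min at an unadjusted p under 0.05: Slc38a2, Slc7a1, Slc38a1, Slc7a5 and Slc7a6. Slc38a2, a sodium-coupled carrier of alanine and glutamine known to be induced by amino acid shortage, had 2645, 3488 and 5614 on day 1 and 3169, 4664 and 5552 on day 3. Levels followed clamp time on both days and the groups did not overlap. Its difference of 60 from 0 min was 0.94 ± 0.17 (limma adjusted p = 0.0922). Its 2 other probe sets above the filter, both dimmer, gave 0.21 and 0.14.

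Slc7a1, the main carrier of arginine and lysine in dividing cells, had 481, 613 and 829 on day 1 and 391, 579 and 984 on day 3. Here too each step of clamp time was higher on both days, with a difference of 1.03 ± 0.18 (limma adjusted p = 0.0899) and 1.07 from a second probe set. Slc38a1, a glutamine carrier, had 129.9, 187 and 208 on day 1 and 99.8, 167 and 317 on day 3. It kept the same order and differed by 1.07 ± 0.25 (limma adjusted p = 0.128), with 0.56 from its second probe set.

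Slc7a5, the light chain of the leucine carrier that feeds mTORC1 signalling, had 152, 292 and 278 on day 1 and 132, 183 and 365 on day 3. All 4 clamped arrays were above both 0 min arrays, and 60 differed from 0 min by 1.09 ± 0.27 (limma adjusted p = 0.132). Its obligate heavy chain Slc3a2, which also serves Slc7a6, Slc7a7 and Slc7a8, stood elsewhere, as it read 4339 and 5886 at 60 min, against 4659.7 and 6402 at 0 min (-0.11 ± 0.17). Slc7a6, which exchanges arginine for glutamine, read 272 and 275 at 60 min, against 220.1 and 167 at 0 min, without overlap (0.48 ± 0.18, limma adjusted p = 0.214).

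The remaining growth-linked genes had smaller differences between 60 and 0 min than these 5. The glutamine carrier Slc1a5 read 498 and 487 at 60 min, against 438 and 387 at 0 min (0.25 ± 0.18), and the glucose carrier Slc2a1 had 2822 and 3027, against 2812 and 2594 (0.11 ± 0.15). The groups overlapped in neither gene, and the gap of Slc2a1 was narrow. The values were 0.28 ± 0.31 for the glucose carrier Slc2a3, 0.01 ± 0.17 for the glycine carrier Slc6a9 and -0.18 ± 0.28 for the serine carrier Slc1a4. Other probe sets of Slc1a4, Slc1a5, Slc2a3 and Slc6a9 gave the opposite sign in at least 1 case each. Slc7a11, the cystine and glutamate exchanger, and the arginine carrier Slc7a3 were below the filter, with intensities of at most 35.8 and 35.4 on any array.

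Beside the growth-linked values, leukocyte markers summed to 8121 and 33687 on the 60 min arrays of days 1 and 3, against 6008 and 10837 on the 0 min arrays. Cycling cell markers summed to 3900 and 10111 at 60 min, against 349 and 1385 at 0 min. The part of these cells in the growth-linked differences was not tested. The amino acid response list, which holds targets and partners of ATF4, had a median of 0.58 over 12 genes, with 10 higher. The 4 genes with the largest differences were the transcription factors Atf3 (2.18 ± 0.20) and Myc (1.80 ± 0.39), the serine synthesis enzyme Phgdh (1.62 ± 0.23) and the folate enzyme Mthfd2 (1.43 ± 0.18). Atf4 itself differed by 0.09 ± 0.24 and the mitochondrial serine enzyme Shmt2 by -0.73 ± 0.19.

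Partners and regulators of the apical carriers were also mostly lower. Of 7 such genes measured, 6 were lower and 1 higher, with a median of -0.25. The 4 with the largest differences were the transcription factor Hnf4a (-0.50 ± 0.20), the scaffold Pdzk1 (-0.41 ± 0.15), the chaperone Cltrn, which brings Slc6a19 to the membrane (-0.39 ± 0.15), and the scaffold Slc9a3r1 (-0.25 ± 0.17).

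All 6 basolateral carriers had a negative fitted difference at 60 min, with a median of -0.35, although that of Slc7a7 was close to 0. The glutamine carrier Slc38a3, which feeds ammonia production, read 771 and 299 at 60 min, against 948 and 673 at 0 min (-0.71 ± 0.23, limma adjusted p = 0.189). Slc6a13, a carrier of GABA and taurine, had 1473 and 1256, against 1829 and 2344 (-0.60 ± 0.21, limma adjusted p = 0.208). These were the 2 basolateral genes with an unadjusted p under 0.05, and Slc6a13 alone showed no overlap. The differences were -0.37 ± 0.28 for the neutral amino acid exchanger Slc7a8 and -0.33 ± 0.32 for the uniporter Slc43a2. They were -0.16 ± 0.19 for the glucose carrier Slc2a2 and -0.01 ± 0.23 for Slc7a7, the exchanger lost in human lysinuric protein intolerance. A second probe set of Slc7a7 gave 0.20, so no direction was read for that gene.

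**Figure D3:**
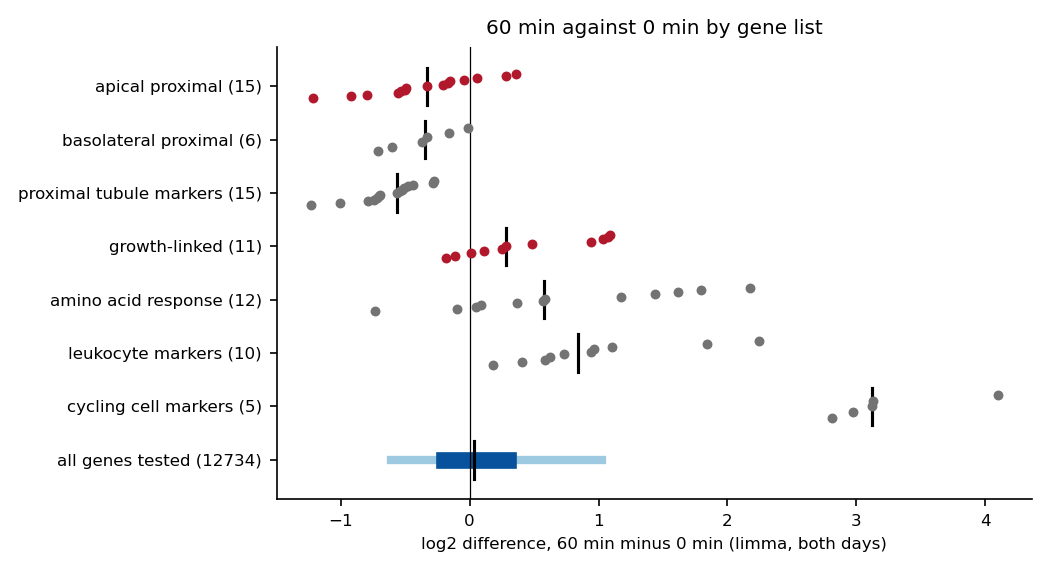
Log2 difference of 60 min minus 0 min, fitted over both days with limma (horizontal axis), for each measured gene (points) of the lists named at the left, with the number measured in brackets and a black bar at the list median. The bottom bar shows all 12734 genes tested, dark from the 25th to the 75th percentile (-0.20 to 0.30) and pale from the 5th to the 95th (-0.61 to 1.03). The apical median is -0.33, the growth-linked median 0.28 and that of proximal tubule markers -0.57.

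Carriers of osmolytes, which medullary cells accumulate against high salt, gave no common direction. Slc5a3, the myo-inositol carrier, had 13324, 9193 and 9185 on day 1 and 10964, 17099 and 7152 on day 3. The 45 min array of day 3 was the highest of all and both 60 min arrays the lowest, with a difference of 60 from 0 min of -0.58 ± 0.34. A second probe set gave -0.09. The betaine carrier Slc6a12 read 57.1 and 43.2 at 60 min, against 122 and 93.0 at 0 min, without overlap (-0.90 ± 0.42, limma adjusted p = 0.292). Its lowest value was 15.2, at 45 min on day 3. The taurine carrier Slc6a6 read 6589 and 5167 at 60 min, against 5279 and 4319 at 0 min, and differed by 0.29 ± 0.15.

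The largest difference of any tested member belonged to Slc7a12, an amino acid carrier first known from mouse kidney. It had 157, 1449 and 615 on day 1 and 219, 646 and 597 on day 3 at 0, 45 and 60 min. All clamped arrays were above both 0 min arrays, and on each day 45 min was the highest. It differed by 2.29 ± 0.39 between 45 and 0 min (limma adjusted p = 0.803) and by 1.62 ± 0.39 between 60 and 0 min (limma adjusted p = 0.129). Slc7a2, an arginine carrier also known from activated macrophages, had 74.9, 201 and 173 on day 1 and 96.8, 139 and 214 on day 3. It differed by 1.04 ± 0.25 between 60 and 0 min (limma adjusted p = 0.128), and again all 4 clamped arrays were above both 0 min arrays.

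The insulin-responsive glucose carrier Slc2a4 and the proton-coupled myo-inositol carrier Slc2a13 were among the lowest at 60 min. Slc2a4 had 739.7, 506 and 367 on day 1 and 538, 460.4 and 242 on day 3, in the order of clamp time on both days. Its difference was -1.04 ± 0.17 (limma adjusted p = 0.0896), and -1.26 on a second probe set. Slc2a13 read 211 and 215 at 60 min, against 416 and 369 at 0 min, again without overlap (-0.84 ± 0.15, limma adjusted p = 0.0922). Of 4 perirenal fat and adrenal markers above the filter, 3 were lower at 60 min and 1 higher, with a median of -0.34. The fat markers Adipoq and Cidec were lower and Ucp1 higher. The part of attached fat in the Slc2a4 difference was not tested.

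Of the lysosomal carriers, Slc36a1, which exports amino acids with protons, read 738 and 801 at 60 min, against 1173 and 1321 at 0 min (-0.68 ± 0.15, limma adjusted p = 0.115). Its relative Slc36a4 ran the other way, with 523 and 547 at 60 min, against 318 and 300.0 at 0 min (0.76 ± 0.26, limma adjusted p = 0.193). Neither pair of groups overlapped. The other 3 members of that list lay within 0.04 of 0. Slc43a3, a purine nucleobase carrier, read 575 and 451 at 60 min, against 406 and 259 at 0 min (0.62 ± 0.19, limma adjusted p = 0.168), and the groups did not overlap. The remaining members with large differences were Slc43a1 (-0.55 ± 0.34), a uniporter of neutral amino acids, Slc1a3 (-0.53 ± 0.39), a glial glutamate carrier, and the glucose carrier Slc2a12 (-0.47 ± 0.22). They also included the vitamin carrier Slc5a6 (-0.44 ± 0.31), Slc38a10 (-0.31 ± 0.15), Slc38a6 (0.34 ± 0.18), the sugar carrier Slc5a9 (0.33 ± 0.17) and the serotonin carrier Slc6a4 (0.25 ± 0.32). None of these 8 had an unadjusted p under 0.05.

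Most carriers known from neurons and glia were dim. Of 15 such genes on the array 7 passed the filter, and these differed by between -0.53 and 0.76. The highest was the glial glutamate carrier Slc1a2, with 81.4 and 151 at 60 min, against 40.9 and 84.0 at 0 min, which overlapped (0.76 ± 0.29, limma adjusted p = 0.230). Over all lists 23 members lay below the filter, with mean intensities of 3.56 to 50.5 and no single value above 85.1. No difference was read from these low values.

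The second question was at which clamp time the differences appeared. After 45 min no gene passed an adjusted p under 0.05 against 0 min (0%), with 740 of 12734 at an unadjusted p under 0.05. By chance 636.7 would be expected in each contrast, and 60 minus 0 min had 2723. Among members, 4 of 65 were higher at that p (3.84% of all genes were) and 0 lower (1.97% of all genes were). The apical median was 0.05, with 10 of 15 higher, and the growth-linked median 0.19, with 6 of 11 higher. With 1 array left out the apical median ran from -0.16 (0 min day 1) to 0.32 (0 min day 3) and was -0.046 without 45 min day 1 and 0.31 without 45 min day 3, so no direction was read from it. The growth-linked median was 0.0081 without the 0 min array of day 3, 0.089 without 45 min day 1 and 0.093 without 45 min day 3. The clamp comparisons share the 0 min arrays, so they are not independent of each other.

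Between 60 and 45 min the apical median was -0.33, with 14 of 15 lower, and the growth-linked median 0.27, with 11 of 11 higher, beside 0.05 over all genes tested. On day 1 alone, 13 of 15 apical genes were lower and 8 of 11 growth-linked genes higher. On day 3 alone the numbers were 11 of 15 and 10 of 11. In this contrast other probe sets above the filter were higher for Slc2a1, Slc7a1, Slc7a6, Slc38a1 and Slc38a2. At least 1 was lower for each of Slc1a4, Slc1a5, Slc2a3 and Slc6a9. No gene passed an adjusted p under 0.05 (0%), with 1661 at an unadjusted p under 0.05. At that p 7 of 65 members were lower (5.29% of all genes were), 5 of them apical, and 2 were higher (7.76% of all genes were), both growth-linked. The apical genes were Slc7a13 (-1.16 ± 0.20, limma adjusted p = 0.306), Slc5a8 (-0.97 ± 0.22), Slc6a20b (-0.69 ± 0.14), Slc5a10 (-0.64 ± 0.18) and Slc3a1 (-0.52 ± 0.18). The growth-linked genes were Slc7a1 (0.59 ± 0.18) and Slc38a2 (0.47 ± 0.17). After 45 min, Slc3a1 and Slc7a13 differed from 0 min by 0.01 ± 0.18 and -0.06 ± 0.20. The other apical genes named here differed by -0.23 (Slc6a20b), 0.17 (Slc5a8) and 0.11 (Slc5a10). Slc38a2 and Slc7a1 were at 0.48 ± 0.17 and 0.44 ± 0.18, but 5 of 11 growth-linked genes were lower at 45 than at 0 min.

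The third question was how the days differed. Single arrays were set against the 0 min array of the same day, with a 2-fold difference as the measure and no p-value. After 60 min on day 1, 3 of 65 tested members were at least 2-fold higher (4.39% of all genes were) and 1 at least 2-fold lower (1.71% of all genes were). The higher ones were Slc7a12 (1.86), Slc38a2 (1.08) and Slc7a2 (1.06), and the lower one Slc43a1 (-1.14). On day 3, 5 of the 65 were at least 2-fold higher (7.58% of all genes were) and 6 at least 2-fold lower (2.32% of all genes were). The higher ones were Slc38a1 (1.52), Slc7a12 (1.38), Slc7a5 (1.37), Slc7a1 (1.30) and Slc7a2 (1.03). The lower ones were Slc7a13 (-1.48), Slc2a5 (-1.28), Slc38a3 (-1.13), Slc5a8 (-1.12), Slc2a4 (-1.10) and Slc5a6 (-1.04). On both days the share of members that were higher was near that of all genes. On day 1 so was the share that were lower.

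The apical median after 60 min was -0.08 on day 1, with 9 of 15 lower, and -0.47 on day 3, with 13 of 15 lower. After 45 min it was 0.38 on day 1, with 10 of 15 higher, and -0.15 on day 3, with 13 of 15 lower. The 0 min arrays also differed, since 13 of 15 apical genes were higher on day 3 than on day 1 at 0 min (median 0.21). Growth-linked medians were 0.26 on day 1 and 0.67 on day 3 after 60 min, and -0.00 and 0.29 after 45 min. Basolateral genes were all lower on day 3 at both clamp times, with medians of -0.56 after 45 min and -0.44 after 60 min. On day 1, 5 of 6 were higher after 45 min (median 0.24) and 4 of 6 lower after 60 min (median -0.26). At 0 min 5 of 6 basolateral genes were higher on day 3 than on day 1 (median 0.33).

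Day 3 against day 1 over all clamp times had medians of 0.02 for apical and -0.04 for growth-linked genes, and no gene passed an adjusted p under 0.05 (0%), with 1153 at an unadjusted p under 0.05. A further fit let the effect of clamping differ between days, with both clamp times of a day pooled. No gene passed in it either (0%), with 282 at an unadjusted p under 0.05, where 636.7 would be expected by chance. Any difference between the clamp times of a day counts as spread in that fit and widens its error. The lack of genes passing therefore does not exclude changes between days. All 15 apical genes had a more negative effect on day 3 in that fit (median -0.34), and so did all 6 basolateral genes (median -0.62), beside a median of -0.03 over all genes tested. The proximal tubule markers had a median of 0.13 in it, with 10 of 15 more positive on day 3, and the partners and regulators of apical carriers 0.03, with 5 of 7 more positive. All of these genes were read on the same 6 arrays, and each change subtracts the same 0 min arrays, so the genes do not agree independently. On those arrays 13 of 15 apical and 5 of 6 basolateral genes were higher on day 3 (medians 0.21 and 0.33). Of the proximal tubule markers 11 of 15 were (median 0.13). The 3′ to 5′ ratios given above also differed between days. The part of the shared 0 min arrays and of these ratios in the difference between days was not tested.

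**Figure D4:**
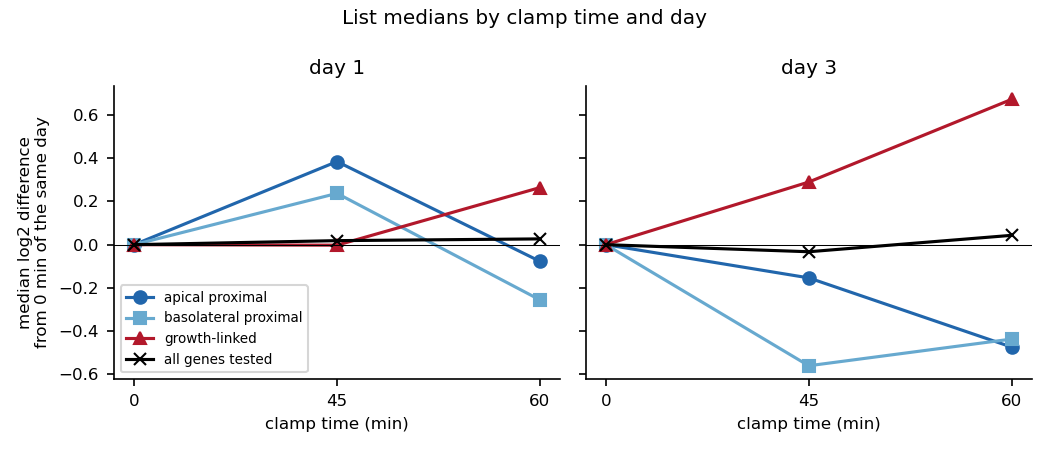
Median log2 difference from the 0 min array of the same day (vertical axis) against clamp time in min on day 1 (left) and day 3 (right) for apical proximal, basolateral proximal and growth-linked genes and for all genes tested, with 1 array behind each point. The apical median is 0.38 at 45 min and -0.08 at 60 min on day 1, and -0.15 and -0.47 on day 3, while the growth-linked median at 60 min is 0.26 on day 1 and 0.67 on day 3.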

How the data were processed

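RNA was isolated with Trizol and copied into biotinylated cRNA with a 3′ IVT kit, per the labels' protocols. The deposited values are intensities, 1 per probe set and array. Affymetrix Expression Console is named per the submitters' processing notes, with a version and summary algorithm not given in the sources used here. The equal trimmed mean of 500 ties every array to the same mean, so bright genes that differ can move all other values. Arrays were grouped by clamp time and day from their titles. The number of arrays limits precision.

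Of 45101 probe sets 34945 carried 1 gene symbol, and those with several symbols or none, and 64 controls, were not used. Each gene was taken from its probe set with the highest mean intensity. Differences were fitted with limma 3.58.1 in R 4.3.3 on log2(intensity + 16), which understates differences of dim genes, over the 12734 genes at or above the 40th percentile of mean log2 intensity. The fit held clamp time and day, and a fit of clamped or 0 min by day gave the change between days. Adjusted p-values are Benjamini-Hochberg over these genes, and the fit was tested on simulated data. Single arrays were compared by size at 2-fold.

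All listed apical, growth-linked, basolateral and osmolyte genes above the filter were named, plus up to 8 other members per direction with the largest difference of 60 from 0 min, and up to 4 genes of each list that holds no members. Genes at least 2-fold different on 1 array, Atf4 and Shmt2 were chosen after their values were seen. Members and lists were chosen with earlier results of these data known. Alternatives tried were the pseudocount, normalization, filter, probe set, variance model, day term and leaving out each array. Promoter windows were taken from the first start listed for each gene.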

Additional observations from a re-analysis of the deposited data

Results flagged for a closer look

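For 12 of 65 tested members (18.5%) both clamped arrays of day 1 lay on one side of the 0 min array of that day and both of day 3 on the other side of theirs, and 14.1% of all genes tested did so too. Of the 12, Slc2a9, Slc36a2 and Slc6a2 are named here only, and values follow for the other 9. The clamp effect of day 3 minus that of day 1 (log2, SE) was -1.50 ± 0.62 for the fructose carrier Slc2a5, -1.06 ± 0.58 for the vitamin carrier Slc5a6, -0.95 ± 0.45 for the neutral amino acid carrier Slc6a19, -0.63 ± 0.34 for the exchanger Slc7a7, -0.49 ± 0.36 for the glucose carrier Slc2a2 and -0.34 ± 0.31 for Slc6a20a. It was 1.20 ± 0.39 for the uniporter Slc43a1, 1.00 ± 0.57 for the glucose carrier Slc2a3 and 0.37 ± 0.32 for the glycine carrier Slc6a9. The 6 with negative values were higher than 0 min on day 1 and lower on day 3, and the 3 with positive values the reverse. The limma adjusted p of each change was 1.0, so none passed the test. The fit behind it counts any difference between the clamp times of a day as spread, so it does not exclude such changes. With 1 array per clamp time and day the sides can also differ by the spread of single arrays.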

How the results depend on the processing

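Day was a block in the fit, and no pairing by replicate number was possible because each group holds 1 array. With either 45 min array left out the other is fitted exactly, so both settings are the same fit for 60 minus 0 min and not separate checks. For 60 minus 0 min, 277 genes passed an adjusted p under 0.05 in limma with a pseudocount of 64, 202 with a filter at the 60th percentile, 135 with median centring, 615 with a robust variance trend, 42 without the day block and 20 with probe sets of a gene averaged. Leaving out 1 array gave 0 to 450 such genes, with 450 without either 45 min array. Among transporters 3 passed with a pseudocount of 64 and 3 with the stricter filter (Slc2a4, Slc6a20b and Slc7a13), 6 with the robust trend (also Slc36a1, Slc38a2 and Slc7a1), and 0 to 3 with 1 array left out (Slc2a4, Slc7a12 and Slc7a2, without either 45 min array). Leaving out 1 array gave 0 to 3 genes for 45 minus 0 min and 0 to 1 for day 3 minus day 1, where the robust trend gave 4. The apical median of 60 minus 0 min was -0.60 at the lowest (0 min array of day 1 left out) and -0.027 at the highest (0 min array of day 3 left out), and that of 60 minus 45 min ran from -0.54 to -0.16. With 1 array left out the growth-linked median of 60 minus 0 min ran from 0.28 to 0.68. It was 0.15 with quantile normalization, 0.18 with median centring and 0.23 with a pseudocount of 64, where all genes tested had medians of -0.03, -0.06 and 0.03. The growth-linked median of 60 minus 45 min ran from 0.17 to 0.37 with 1 array left out. It was 0.44 with no filter and 0.17 with the mean of probe sets. The growth-linked median of 45 minus 0 min was -0.11 with no filter, where dim genes enter. Other causes were not tested. Of 777 values of named members for 60 minus 0 min under these settings 33 turned sign. Of 32 other probe sets of named members above the filter, a choice added after seeing the data, 27 had the sign of the chosen one and 5 the opposite (Slc1a4, Slc1a5, Slc2a3, Slc6a9 and Slc7a7). The change between days could not be fitted without a 0 min array. Dim genes near an intensity of 16 have understated differences.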
